A study of Homo sapiens with 5 samples.

Results

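Translation elongation and termination factors were examined as a set of 8 genes in ribosome footprints from HCT116, a cell line of human colorectal carcinoma. Its members were named by their function, and no measured value enters the rule, though earlier results of these data were known when the set was drawn up. It holds 5 subunits of cytosolic elongation factors (EEF1A1, EEF1B2, EEF1D, EEF1G and EEF2), the eEF2 kinase EEF2K, and the release factors ETF1 and GSPT1. These are 8 of the 17297 genes in the deposited count table, and all 8 were tested. The MUT group had 3 libraries from HCT116 cells edited with CRISPR/Cas9 to carry N106S, a change of asparagine to serine at residue 106 of eIF6, on both alleles. The WT group had 2 libraries from unedited HCT116 cells. The labels name no further treatment for either group. The labels speak of mutant clones but do not say which clone or culture a library came from. Each p-value therefore rests on the spread among the libraries, and that spread may be technical. In edgeR the spread is shared across genes, so a gene's p-value does not rest on its own values alone.

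During elongation, eEF1A (EEF1A1) carries aminoacyl-tRNA to the ribosome as a GTP complex. The eEF1B complex of EEF1B2, EEF1D and EEF1G reloads it with GTP, and eEF2 moves the ribosome on by a codon. EEF2K phosphorylates eEF2 and so slows elongation. At a stop codon, eRF1 (ETF1) recognises the codon and releases the peptide together with the GTPase eRF3 (GSPT1). Elongation factor mRNAs belong, with those of the ribosomal proteins, to the TOP mRNAs, which start with a C followed by a run of pyrimidines and whose translation depends on mTOR signalling. eIF6 itself binds the large ribosomal subunit and keeps it from joining the small one before its time.

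Ribosome profiling counts stretches of mRNA covered by ribosomes and so kept from digestion. A gene's count reflects both the amount of its mRNA and the ribosomes on each mRNA, and those cannot be told apart here because RNA-seq was not analysed. Libraries were scaled to each other, so a change is relative to the other genes. Totals were 3076137 to 3821176 counts in MUT libraries, and 2095217 and 3128144 counts in WT replicates 1 and 2. WT replicate 1 stood apart: ribosomal protein genes took 3.39% of its counts, against 2.56 to 2.72% in MUT libraries and 2.80% in WT replicate 2. Values without it stand beside the results it changes most. Of 9 colon epithelial markers, KRT8, KRT18, KRT19, EPCAM, CDH1 and CDX2 were above the filter on low counts, VIL1 and CDX1 were at or near 0, and LGALS4 was not analysed here. Of the epithelial markers, EPCAM (55.4 CPM in MUT and 78.0 CPM in WT) and CDH1 (11.2 and 21.2) were called lower in MUT, and KRT8 (371 and 287) and KRT19 (502 and 412) higher. ALB and HBB, markers of liver and red blood cells, had at most 2.00 CPM in any library, COL1A1 of fibroblasts averaged 7.39 CPM in MUT and 7.59 CPM in WT, and PTPRC and PECAM1 were not analysed here.

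The first bases of the transcripts are shown because a TOP mRNA is defined by them. Each window has 30 bases of the sense strand, read as in the mRNA, 15 on each side of an annotated start in RefSeq (GRCh38.p14). Capitals mark the longest run of at least 5 C or T that begins with C within 10 bases of the start.
EEF1A1, chr6:73521018-73521047, minus strand: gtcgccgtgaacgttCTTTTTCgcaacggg
EEF2, chr19:3985449-3985478, minus strand: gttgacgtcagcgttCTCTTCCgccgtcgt
EEF1B2, chr2:206159880-206159909, plus strand: ccggtctcttcgggtCCTTTTTCCTCTCTT
EEF1G, chr11:62573877-62573906, minus strand: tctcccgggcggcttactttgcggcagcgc
EEF2K, chr16:22206263-22206292, plus strand: tgcccgcccgCTTCTgctcaacctagacca
In EEF1A1 and EEF2 the run is 7 bases long and begins at the annotated start itself. In EEF1B2 it begins at the start and is 16 bases long, one more than the window shows, and a shorter run that also meets the rule lies ahead of it in lower case. A second annotated start of EEF1B2 has no such run. The EEF2K run is 5 bases long and ends before the start. No such run begins within 10 bases of the start in the EEF1G window, nor in either annotated window of ETF1 or of GSPT1, and EEF1D is not shown. Such a run was found for 4 of the 7 factor genes with a window (57.1%), for 4005 of 9764 tested genes with one (41.0%) and for 57 of 67 tested ribosomal protein genes (85.1%). Counted by window, 32.5% of 35116 RefSeq promoter windows held it, on the sense strand alone. A match is a description of the letters and not a measured start.

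Among the factor genes, EEF1A1 alone passed the test, with fewer footprints in MUT, and the other 7 were not called in either direction. edgeR's quasi-likelihood test with Benjamini-Hochberg adjustment over all 11991 tested genes, at an adjusted p under 0.05, called 0 of the 8 higher and 1 lower. Of all tested genes, 10.0% were called higher and 12.9% lower, 22.9% in all. At an unadjusted p under 0.05, 2 of the 8 passed, EEF1A1 and EEF1B2, against 35.8% of all tested genes. The median log2 fold change of MUT over WT was -0.12 over the 8 genes, 0.0024 over all tested genes and -0.33 over 83 tested ribosomal protein genes, of which 44 were called lower and 0 higher. In 2 of the 8 genes, EEF1B2 and GSPT1, the MUT libraries did not overlap the WT libraries, against 50.7% of tested genes.

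**Figure D1:**
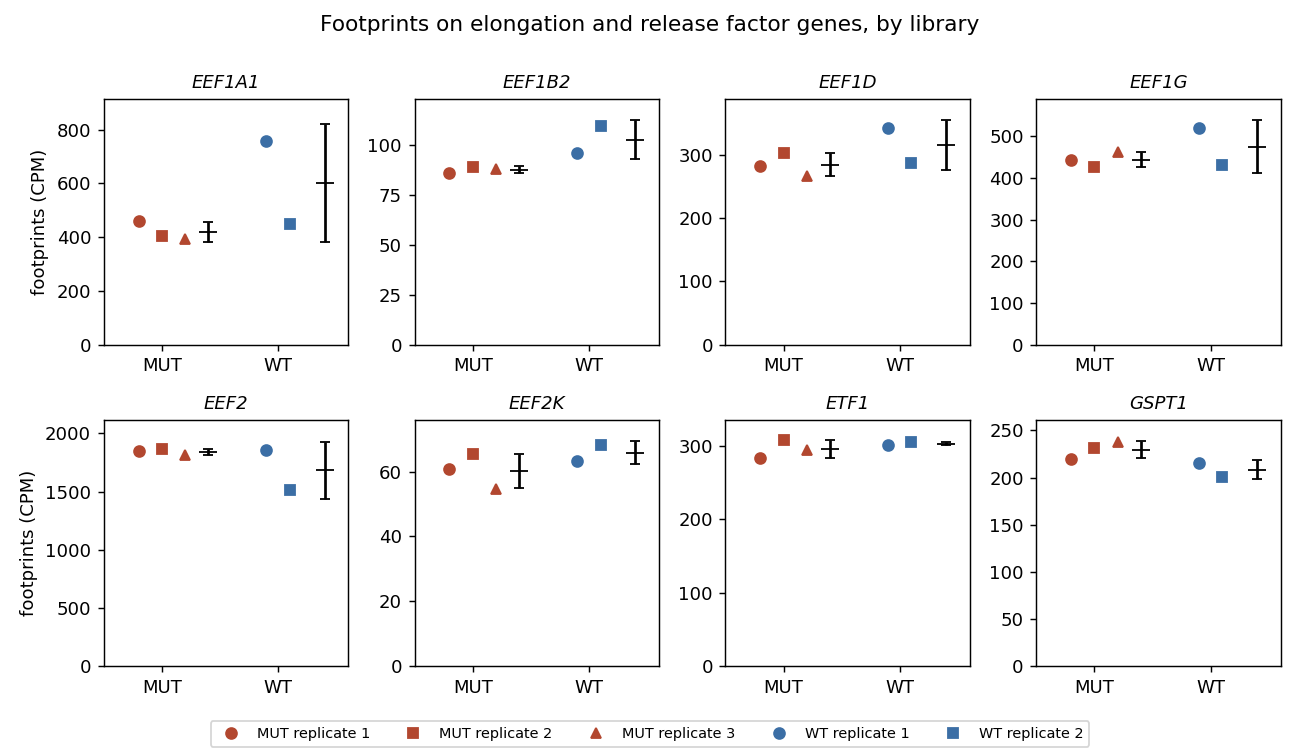
Footprints (CPM, TMM-scaled, linear axes from 0) on each of the 8 factor genes in each MUT library (red, left) and WT library (blue, right), with group means and SDs as black bars (n = 3 and n = 2). The EEF1A1 value of WT replicate 1, 758 CPM, lies far above the 448 CPM of WT replicate 2, while EEF2 is at 1817 CPM or more in 4 libraries and at 1509.6 CPM in WT replicate 2.

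EEF1A1 (gene ID 1915, chromosome 6, 73515750 to 73521032) had 459, 404 and 393 CPM in MUT replicates 1 to 3, against 758 and 448 CPM in WT replicates 1 and 2. CPM values here are footprint counts scaled to the library's total (edgeR's cpm, with TMM factors). MUT replicate 1 was above WT replicate 2, so the groups overlapped, and the highest library was WT replicate 1. The raw counts behind these values were 1444, 1534 and 1532 in MUT and 1518 and 1369 in WT. The mean was 419 ± 35.5 CPM in MUT (SD, n = 3) and 603 ± 219.6 CPM in WT (SD, n = 2). EEF1A1 was 1.43-fold lower in MUT, with a log2 fold change of -0.52 (SE 0.137, 95% interval -0.80 to -0.24) and an adjusted p of 0.00810 by edgeR's quasi-likelihood test. That call was made in 12 of 15 other settings, whose adjusted p ran from 5.99e-06 to 0.557. It was not made by DESeq2 (adjusted p = 0.227), with robust dispersion in edgeR (adjusted p = 0.124) or without WT replicate 1, where the log2 fold change was -0.10 (adjusted p = 0.557). Without WT replicate 2 the log2 fold change was -0.85. RefSeq names 50 pseudogene copies of EEF1A1, none of them in the count table, and the sources used here do not give how reads that match several places were treated. The level of EEF1A1 is therefore uncertain.

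EEF1A2, a separate gene for an isoform of eEF1A known from muscle and neurons, moved the other way. It had 372, 406 and 370 CPM in MUT libraries and 320.1 and 307 CPM in WT libraries, with all MUT libraries above both WT libraries. The mean was 382 ± 19.99 CPM in MUT (SD, n = 3) and 313 ± 9.51 CPM in WT (SD, n = 2). EEF1A2 was 1.22-fold higher (log2 0.29, edgeR adjusted p = 0.0288). Leaving out 1 library ended that call for WT replicate 1 (adjusted p = 0.0542), WT replicate 2 (0.130), MUT replicate 1 (0.0796) or MUT replicate 2 (0.111) in edgeR. The EEF1A1 count was 1.24, 0.996 and 1.06 times the EEF1A2 count in MUT libraries, and 2.37 and 1.46 times in WT libraries. That ratio, added after the data were seen, was lower in all 3 MUT libraries than in both WT libraries, by -0.77 on the log2 scale (two-sided exact permutation p = 0.1, the smallest that 10 splits allow). Without WT replicate 1 it was -0.42, and it was -1.11 when WT replicate 2 was left out. The ratio pairs a gene called lower with one called higher in these same libraries, so its direction adds no support to either call. Together EEF1A1 and EEF1A2 took 0.0849, 0.0818 and 0.0778% of all counts in MUT, and 0.103 and 0.0737% in WT (exact permutation p = 0.8). Reads that match both genes could be counted for either.

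**Figure D2:**
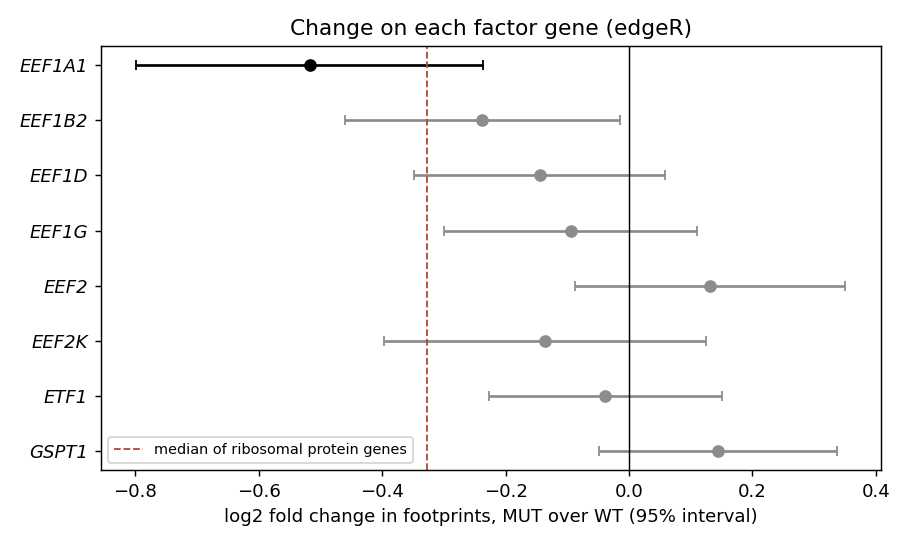
Log2 fold change of MUT over WT in footprints (horizontal axis) for each of the 8 factor genes, with 95% intervals from edgeR. The black point, EEF1A1 at -0.52, is the only gene called, grey points were not called, and the dashed line marks the median of ribosomal protein genes at -0.33.

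The 3 subunits of eEF1B, the exchange factor for eEF1A, had values below 0 and none was called. EEF1B2 (gene ID 1933, chromosome 2, 206159609 to 206162928), the catalytic alpha subunit called eEF1B alpha or eEF1 beta, had 85.9, 89.0 and 88.0 CPM in MUT libraries, against 95.9 and 109.5 CPM in WT libraries. All MUT libraries were below both WT libraries, as in 25.3% of tested genes. Its mean was 87.6 ± 1.59 CPM in MUT (SD, n = 3) and 103 ± 9.65 CPM in WT (SD, n = 2). The log2 fold change was -0.24 (SE 0.108, 95% interval -0.46 to -0.015), with an adjusted p of 0.114 by edgeR. Over 15 other settings it lay between -0.33 and -0.12 and was never called.

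EEF1D (gene ID 1936, chromosome 8, 143579728 to 143597415), the second exchange subunit of animal cells, had 283, 304 and 267 CPM in MUT libraries and 344 and 288 CPM in WT libraries. MUT replicate 2 lay between the WT libraries. The fold of MUT over WT was 0.905 (95% interval 0.786 to 1.04, edgeR adjusted p = 0.305). Its log2 fold change of -0.14 was -0.025 with WT replicate 1 left out and -0.26 with WT replicate 2 left out. EEF1G (gene ID 1937, chromosome 11, 62559596 to 62573891), the structural gamma subunit, had 442, 426 and 463 CPM in MUT libraries and 519.9 and 431 CPM in WT libraries. Here too the groups overlapped, with WT replicate 1 the highest library and MUT replicate 2 the lowest. Its fold was 0.937 (95% interval 0.813 to 1.08, edgeR adjusted p = 0.526). Without WT replicate 1 the log2 fold change of EEF1G was 0.037 (adjusted p = 0.837). RefSeq names 8 pseudogene copies of each of the 3 eEF1B genes, and none is in the count table.

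EEF2 (gene ID 1938, chromosome 19, 3976056 to 3985463), the translocase, had 1845, 1864 and 1817 CPM in MUT libraries, against 1856 and 1509.6 CPM in WT libraries. WT replicate 1 lay among the MUT libraries and WT replicate 2 lay below them all. The mean was 1842 ± 23.7 CPM in MUT (SD, n = 3) and 1683 ± 245 CPM in WT (SD, n = 2). The fold of MUT over WT was 1.10 (95% interval 0.942 to 1.28, edgeR adjusted p = 0.394). Both WT libraries decided this value. Without WT replicate 1, EEF2 was called higher in MUT, with a log2 fold change of 0.28 (edgeR adjusted p = 0.0436), and without WT replicate 2 the log2 fold change was -0.0040 (adjusted p = 0.984). No gene of the count table overlaps EEF2, and RefSeq names no pseudogene copy of it.

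EEF2K (gene ID 29904, chromosome 16, 22206278 to 22288738), the calmodulin-dependent kinase of eEF2, had 60.8, 65.3 and 54.7 CPM in MUT libraries and 63.4 and 68.3 CPM in WT libraries. MUT replicate 2 lay between the WT libraries and the other MUT libraries below them. Its mean was 60.2 ± 5.34 CPM in MUT (SD, n = 3) and 65.9 ± 3.47 CPM in WT (SD, n = 2). The fold was 0.910 (95% interval 0.759 to 1.09, edgeR adjusted p = 0.468), and EEF2K was not called in any of 15 other settings. With 127 to 248 counts a library, EEF2K had the widest interval on the log2 scale after EEF1A1.

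The release factors gave values on either side of 0, and neither was called. ETF1 (gene ID 2107, chromosome 5, 138506095 to 138543236), which encodes eRF1, had 284, 308 and 294 CPM in MUT libraries and 302 and 305 CPM in WT libraries. The MUT libraries lay on both sides of the WT libraries. The fold was 0.974 (95% interval 0.854 to 1.11, edgeR adjusted p = 0.801). GSPT1 (gene ID 2935, chromosome 16, 11868128 to 11916654), which encodes eRF3a, had 219, 231 and 238 CPM in MUT libraries, against 216 and 201 CPM in WT libraries. All MUT libraries were above both WT libraries, as in 25.4% of tested genes, by a narrow margin between MUT replicate 1 and WT replicate 1. The mean was 229.6 ± 9.33 CPM in MUT (SD, n = 3) and 208 ± 10.4 CPM in WT (SD, n = 2). The fold was 1.10 (95% interval 0.966 to 1.26, edgeR adjusted p = 0.282). The GSPT1 value kept its sign in all 15 other settings, with a log2 fold change from 0.098 to 0.22, and was never called.

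**Figure D3:**
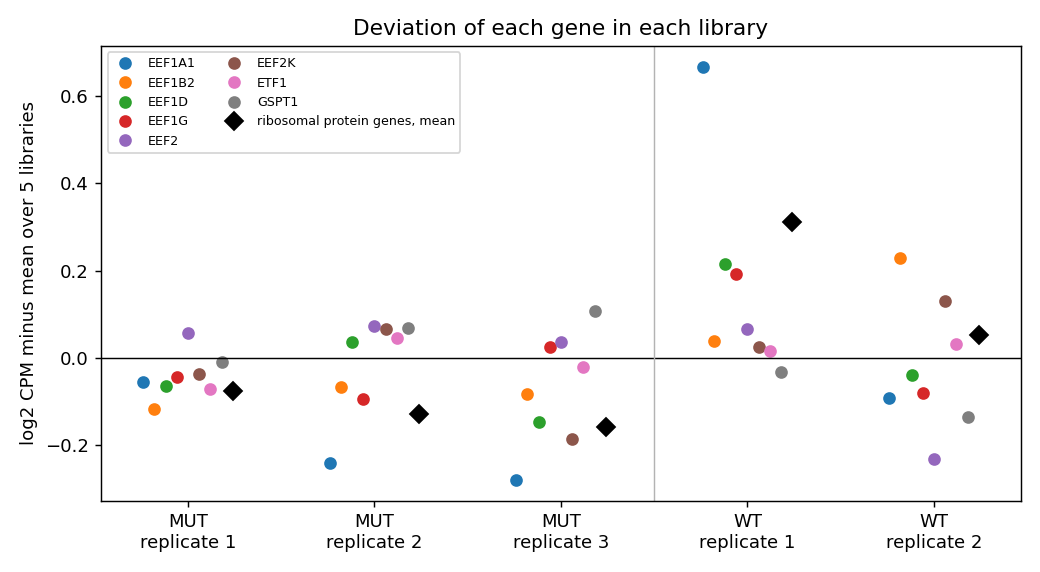
Deviation of each factor gene, and of the mean ribosomal protein gene (black diamonds), from its own mean log2 CPM over the 5 libraries, with MUT libraries left of the line and WT libraries right. EEF1A1 is at 0.67 and the ribosomal protein mean at 0.31 in WT replicate 1, while in WT replicate 2 EEF1A1 is at -0.092 and EEF2 at -0.23.

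The libraries of WT differed from each other more than those of MUT for several factor genes. In WT replicate 1, EEF1A1 was 0.67 above its own mean log2 CPM over the 5 libraries, EEF1D was 0.21 above and EEF1G was 0.19 above. The mean ribosomal protein gene was 0.31 above in that library. In WT replicate 2 the corresponding values were -0.092 for EEF1A1, -0.038 for EEF1D, -0.080 for EEF1G and 0.051 for ribosomal protein genes. EEF1B2 and EEF2K showed the other order, with 0.039 and 0.025 in WT replicate 1 but 0.23 and 0.13 in WT replicate 2. The part that the composition of WT replicate 1 has in the EEF1A1 result was not tested beyond the values with and without it.

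The 8 genes together took 0.376% of all counts in MUT replicate 1 (95% exact binomial interval 0.369 to 0.383), 0.373% in MUT replicate 2 (0.367 to 0.379) and 0.369% in MUT replicate 3 (0.363 to 0.375). In WT they took 0.397% in replicate 1 (0.389 to 0.406) and 0.329% in replicate 2 (0.322 to 0.335). These intervals cover counting error only. The WT libraries lay on either side of the MUT libraries, and the means differed by 0.00992 percentage points (two-sided exact permutation p = 0.7). Leaving out WT replicate 1 gave a difference of 0.0442, and leaving out WT replicate 2 gave -0.0243. Leaving EEF1A1 out, the other 7 genes took 0.330% ± 0.00208 in MUT (SD, n = 3) and 0.305% ± 0.0282 in WT (SD, n = 2), and all MUT libraries were above both WT libraries (exact permutation p = 0.1). EEF1A1 was the one gene called lower in these same libraries, so leaving it out favours a higher share in MUT. The separation of the other 7 is therefore no support for a rise of these genes. EEF2, which overlapped between the groups in CPM and was not called, gave most of these counts. Shares are of raw counts, without TMM scaling. Of all genes called, 62.8% were higher in MUT with library size only, against 43.8% with TMM.

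Ratios between partner factors within a library need no scaling between libraries, and 6 were compared. EEF1A1 over EEF2, delivery over translocation, was 0.249, 0.217 and 0.216 in MUT libraries, against 0.409 and 0.297 in WT libraries. All MUT values were below both WT values, by -0.62 on the log2 scale. The exact permutation p was 0.1, the smallest this design allows, and 0.3 after Benjamini-Hochberg adjustment over the 6 ratios. Leaving out WT replicate 1 gave -0.39, and leaving out WT replicate 2 gave -0.85. EEF1A1 was called lower in these same libraries, so the direction of this ratio adds no support to that call. ETF1 over GSPT1, the ratio of the release factors, was 1.29, 1.33 and 1.24 in MUT libraries and 1.40 and 1.52 in WT libraries. Again no MUT value reached a WT value, and the log2 difference was -0.18 (exact permutation p = 0.1, adjusted p = 0.3). How many pairs among all tested genes separate in this way was not counted. EEF2K over EEF2, kinase over substrate, was 0.0329, 0.0350 and 0.0301 in MUT libraries and 0.0342 and 0.0453 in WT libraries, with a log2 difference of -0.27 (exact permutation p = 0.2, adjusted p = 0.4). That difference was -0.47 with WT replicate 1 left out and -0.067 with WT replicate 2 left out.

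Within the eEF1B complex the ratios overlapped between the groups. EEF1B2 over EEF1G was 0.194, 0.209 and 0.190 in MUT libraries and 0.184 and 0.254 in WT libraries (exact permutation p = 0.7). EEF1D over EEF1G was 0.641, 0.712 and 0.577 in MUT libraries and 0.661 and 0.670 in WT libraries (exact permutation p = 0.7). EEF1B2 over EEF1D was 0.303, 0.293 and 0.329 in MUT libraries and 0.279 and 0.380 in WT libraries (exact permutation p = 0.8). Each of these 3 adjusted p-values was 0.8. The widest gap inside a group was between the WT libraries for both EEF1B2 ratios, and it turned the sign of both differences when WT replicate 2 was left out (0.099 over EEF1G and 0.14 over EEF1D).

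**Figure D4:**
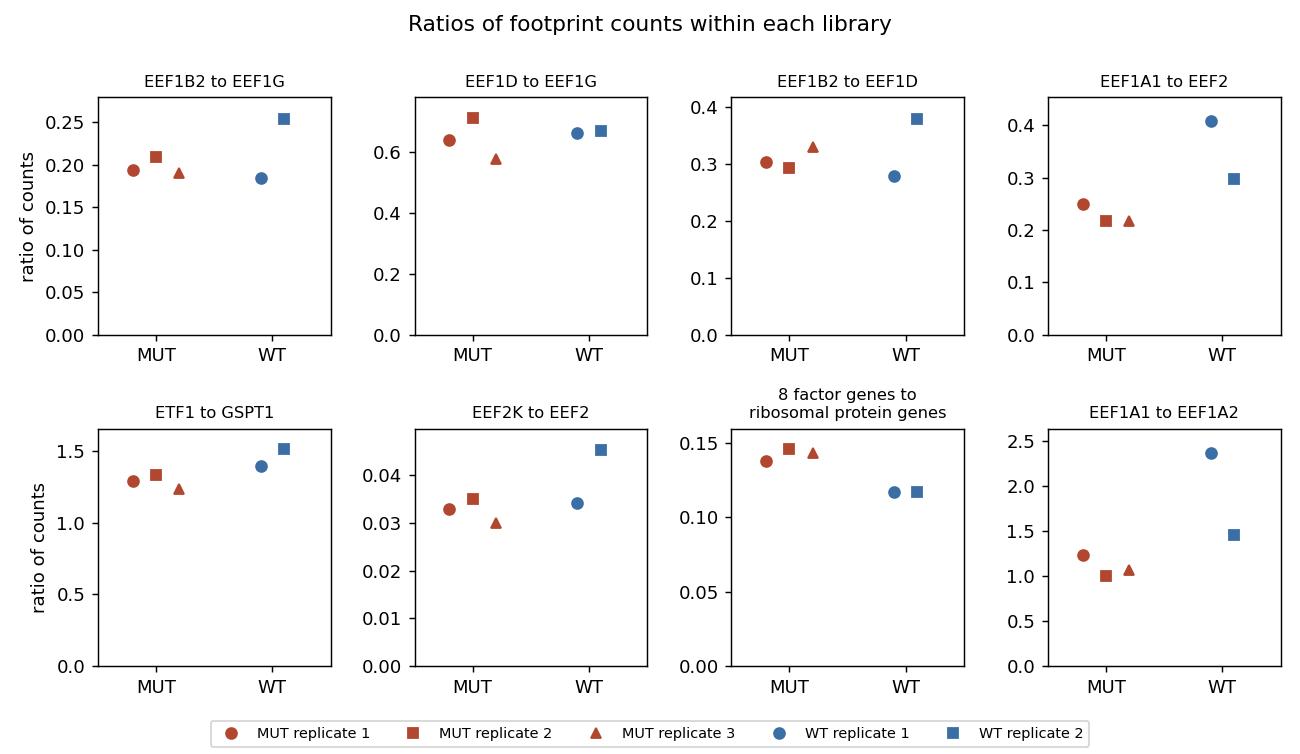
Ratio of footprint counts (linear axes from 0) in each MUT library (red, left) and WT library (blue, right) for the 6 partner pairs, for the 8 factor genes over ribosomal protein genes, and for EEF1A1 over EEF1A2. The groups do not overlap for EEF1A1 over EEF2, ETF1 over GSPT1, the 8 genes over ribosomal protein genes and EEF1A1 over EEF1A2.

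Ribosomal protein genes, whose mRNAs are TOP mRNAs like those of elongation factors, were the set taken for comparison. EEF2K, ETF1 and GSPT1 are not elongation factor subunits. A run at the start was found for 57.1% of the factor genes with a window, against 85.1% of ribosomal protein genes. The 8 factor genes summed to 13.8, 14.6 and 14.3 counts for every 100 ribosomal protein counts in MUT libraries, against 11.7 in each WT library. The ratio was 1.21-fold higher in MUT (log2 0.28, two-sided exact permutation p = 0.1, the smallest possible), and all 3 MUT libraries were above both WT libraries. It stayed between 0.26 and 0.30 whichever library was left out. Restricted to the 5 elongation factor subunits, EEF2 again among them, the log2 difference was 0.27 (p = 0.1, exact permutation). EEF2 alone gave 5801 of the 11567 counts of the 8 genes in MUT replicate 1. In the summed ratio of all 8 genes the WT libraries were alike, unlike in the share of all counts. They were less alike for the 5 elongation factor subunits, at 10.1 and 9.71 counts for every 100 in WT replicates 1 and 2. From means of log2 CPM over the 8 genes, WT replicates 1 and 2 stood at 0.106 and 0.193. Ribosomal protein genes took 2.56 to 2.72% of counts in MUT libraries, against 3.39 and 2.80% in WT replicates 1 and 2. The share of the 8 genes in all counts overlapped between the groups (exact permutation p = 0.7). The higher ratio is therefore not by itself a rise of these genes.

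Gene by gene, a comparison added after the data were seen, the ratio to ribosomal protein genes differed most for EEF2 and GSPT1. EEF2 had 6.93, 7.37 and 7.18 counts for every 100 ribosomal protein counts in MUT libraries, against 5.23 and 5.26 in WT libraries. Its ratio was 1.36-fold higher in MUT (log2 0.45, exact permutation p = 0.1, adjusted p = 0.16 over the 8 genes) and lay between 0.43 and 0.47 with any library left out. GSPT1 also differed by 0.45 (0.35 to 0.55 with any library left out), ETF1 by 0.27 (0.11 to 0.43), EEF1G by 0.22 (0.17 to 0.24) and EEF1D by 0.16 (0.10 to 0.19) on the log2 scale. The ETF1 value was lowest without WT replicate 1 and highest without WT replicate 2. In each of these 5 genes all MUT libraries were above both WT libraries, with the same p and adjusted p as EEF2. The ribosomal protein total under each ratio was itself a smaller part of all counts in every MUT library than in either WT library. How many of all tested genes separate in this ratio was not counted, so the separation cannot be called particular to these 5 genes. In CPM, GSPT1 alone of these 5 did not overlap between the groups. EEF2K (0.18, exact permutation p = 0.5), EEF1B2 (0.083, p = 0.8) and EEF1A1 (-0.17, p = 0.6) overlapped between the groups. These 3 differences turned sign when WT replicate 1 was left out, to -0.029 for EEF2K, -0.17 for EEF1B2 and 0.057 for EEF1A1.

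The factor genes had values on both sides of 0 with and without the pyrimidine run at the start. EEF1A1 and EEF2, with runs of the same length and position, had log2 fold changes of -0.52 and 0.13, though EEF1A1 was at -0.10 without WT replicate 1 and EEF2 at -0.0040 without WT replicate 2. EEF1B2, with the longest run, was at -0.24, and EEF2K, with the shortest, at -0.14. Of the genes where no run was found, ETF1 was at -0.038, GSPT1 at 0.14 and EEF1G at -0.094. Of 4005 tested genes with such a run, 9.3% were called higher and 14.9% lower by edgeR (median log2 fold change -0.0111). Of 5759 tested genes whose windows lack it, 10.6% were called higher and 11.3% lower (median 0.0108).

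By the root mean square difference of log2 CPM over the 5 libraries, each gene centred on its mean, the genes nearest to EEF1A1 were mostly ribosomal protein genes. Among 3138 candidates of at least 100 CPM these were ANAPC16 (0.0773), RPL37 (0.0781), RPL29 (0.0877), RPL12 (0.112) and RPL35A (0.114). RPL37 had 801, 607 and 647 CPM in MUT libraries, against 1254 and 780.4 CPM in WT libraries, so its highest library was also WT replicate 1. Nearest to EEF2 were DDX10 (0.0201), WBP11 (0.0220), PHLDA2 (0.0320), PRELID1 (0.0338) and SERF2 (0.0344). DDX10 had 118, 122 and 121 CPM in MUT libraries and 119 and 98.4 CPM in WT libraries, again with WT replicate 2 the lowest. Nearest to EEF2K, among 8817 candidates of at least 20 CPM, were GART (0.0138), PARN (0.0176), PCBP1 (0.0184), EPB41L2 (0.0197) and PNPLA4 (0.0216). All these likenesses rest on the same 5 libraries, and no test was made of them.

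Around the 8 factors, 48 genes of the wider pathway were listed and tested in 7 lists, and 5 were called higher and 8 lower by edgeR, beside the 10.0% and 12.9% of all tested genes. Without WT replicate 2 these counts were 1 and 1, without WT replicate 1 they were 3 and 7, without MUT replicate 1 they were 2 and 4, and DESeq2 gave 4 and 3. Their median log2 fold change was -0.060, and 19 had an unadjusted p under 0.05 (39.6%, against 35.8% of all tested genes). Among the 7 other cytosolic elongation genes, 1 was called higher (EEF1A2) and 2 lower. EIF5A2, a paralogue of the hypusinated factor eIF5A, had 41.4 ± 1.71 CPM in MUT (SD, n = 3) and 57.8 ± 11.2 CPM in WT (SD, n = 2), a log2 fold change of -0.50 (edgeR adjusted p = 0.0129). That call was lost by DESeq2 and when WT replicate 2 or MUT replicate 1 was left out, with an adjusted p of up to 0.382. EIF5AL1, a copy of EIF5A whose reads may be shared with it, was at -0.26 (edgeR adjusted p = 0.0386) and was called in 5 of 15 other settings, in none with a library left out. EEF1E1, a component of the tRNA synthetase complex, was at -0.28 and not called (edgeR adjusted p = 0.0601). It was called lower without WT replicate 1 (-0.45, edgeR adjusted p = 0.0150) and with the replicate number as a block (adjusted p = 0.0235), and was at -0.057 without WT replicate 2.

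Among 7 partners and modifiers of the release factors, 1 was called higher and 1 lower. PELO, the eRF1-like protein that acts on stalled ribosomes, had 103, 97.4 and 91.6 CPM in MUT libraries, against 66.9 and 61.8 CPM in WT libraries. The groups were well apart. PELO was 1.52-fold higher (log2 0.60, edgeR adjusted p = 0.000773) and was called in all 15 other settings, though the gene overlaps ITGA1 and the sources used here do not give the use of strand. ABCE1, which splits the ribosome after release, had 241 ± 17.8 CPM in MUT (SD, n = 3) and 293 ± 9.53 CPM in WT (SD, n = 2). Its log2 fold change was -0.29 (edgeR adjusted p = 0.0299), and the call was made in 8 of 15 other settings. It was lost without either WT library or without MUT replicate 1 or 3 (adjusted p up to 0.180), and ABCE1 overlaps ANAPC10. JMJD4, the hydroxylase of eRF1 (log2 0.51, edgeR adjusted p = 0.112), and TRMT112, partner of the eRF1 methyltransferase (-0.14, adjusted p = 0.287), were not called.

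Of 7 genes for diphthamide, the modified histidine of eEF2, 1 was called higher and 1 lower. DPH6, which completes diphthamide, had 39.8, 33.7 and 32.8 CPM in MUT libraries, against 49.9 and 55.6 CPM in WT libraries (log2 -0.59, edgeR adjusted p = 0.00529). DPH1, of the first step, had 78.3, 69.8 and 90.6 CPM in MUT libraries, against 58.9 and 55.3 CPM in WT libraries (log2 0.49, edgeR adjusted p = 0.0101), and it overlaps OVCA2. Neither was called without WT replicate 2, with adjusted p of 0.120 for DPH6 and 0.138 for DPH1 in edgeR. DPH2 (log2 0.34, edgeR adjusted p = 0.0698) and DPH5 (-0.25, adjusted p = 0.155) were not called. DPH2 was called higher in 5 of 15 other settings, among them without WT replicate 1 (0.58, edgeR adjusted p = 0.0184), and was at 0.080 without WT replicate 2. Among 6 methyltransferases of eEF1A and eEF2, EEF1AKMT1, a lysine methyltransferase of eEF1A, was the one called. It had 26.5 ± 3.68 CPM in MUT (SD, n = 3) and 41.6 ± 0.534 CPM in WT (SD, n = 2), a log2 fold change of -0.65 (edgeR adjusted p = 0.00618, and 0.0675 without WT replicate 2). The eEF1A methyltransferases METTL13 (0.30, edgeR adjusted p = 0.0668), EEF1AKMT2 (-0.25, 0.105) and EEF1AKMT3 (0.48, 0.115) were not called.

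Of 9 genes that act on the eEF2 kinase or on phosphorylated eEF2, 1 was called higher and 1 lower. PRKAA2, a catalytic subunit of AMPK, which activates EEF2K, had 2.54, 2.63 and 3.85 CPM in MUT libraries, against 10.5 and 10.1 CPM in WT libraries. It was 3.36-fold lower in MUT (log2 -1.75, SE 0.391, edgeR adjusted p = 0.00245). The raw counts were low, at 8, 10 and 15 in MUT and 21 and 31 in WT. The call was lost without WT replicate 2, where the log2 fold change was -1.77. DESeq2 and the strict filter gave no adjusted p for PRKAA2. PRKAA1, the other catalytic subunit, had 135 ± 9.75 CPM in MUT (SD, n = 3) and 144 ± 12.4 CPM in WT (SD, n = 2) and was not called (edgeR adjusted p = 0.526). It was named after its value was seen. RPS6KA1, a kinase that inhibits EEF2K, had 124 ± 12.3 CPM in MUT (SD, n = 3) and 93.7 ± 6.15 CPM in WT (SD, n = 2), 1.31-fold higher (log2 0.39, edgeR adjusted p = 0.0123). Its call was lost when WT replicate 1, WT replicate 2 or MUT replicate 1 was left out, with an adjusted p of up to 0.117. CALM2, a gene for calmodulin, was not called (-0.17, edgeR adjusted p = 0.195).

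The hypusine enzymes, which modify eIF5A, gave DOHH higher in MUT (28.6 ± 3.89 CPM in MUT, SD, n = 3, and 19.3 ± 1.85 CPM in WT, SD, n = 2). Its log2 fold change was 0.55 (edgeR adjusted p = 0.0453), and the call was made in 9 of 15 other settings. It was lost without either WT library or without MUT replicate 1 (adjusted p up to 0.201). DHPS, the first enzyme of the pathway, was at -0.015 (edgeR adjusted p = 0.939). Of 10 mitochondrial elongation and release factors, 0 were called higher and 2 lower. MTRF1, a mitochondrial release factor, had 35.1 ± 0.467 CPM in MUT (SD, n = 3) and 53.2 ± 4.53 CPM in WT (SD, n = 2), a log2 fold change of -0.59 (edgeR adjusted p = 0.00423). It was called in all 15 other settings, and it overlaps NAA16. GUF1, the mitochondrial relative of the bacterial factor LepA, was at -0.38 (edgeR adjusted p = 0.0396, called in 8 of 15 other settings) and was not called without either WT library or without MUT replicate 1. MRRF, which recycles mitochondrial ribosomes (-0.17, edgeR adjusted p = 0.229), and TUFM, the mitochondrial counterpart of eEF1A (-0.16, adjusted p = 0.248), were not called. JMJD4, TRMT112, DPH5 and DHPS, also not called, overlap other genes of the count table, so their counts are uncertain too.

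**Figure D5:**
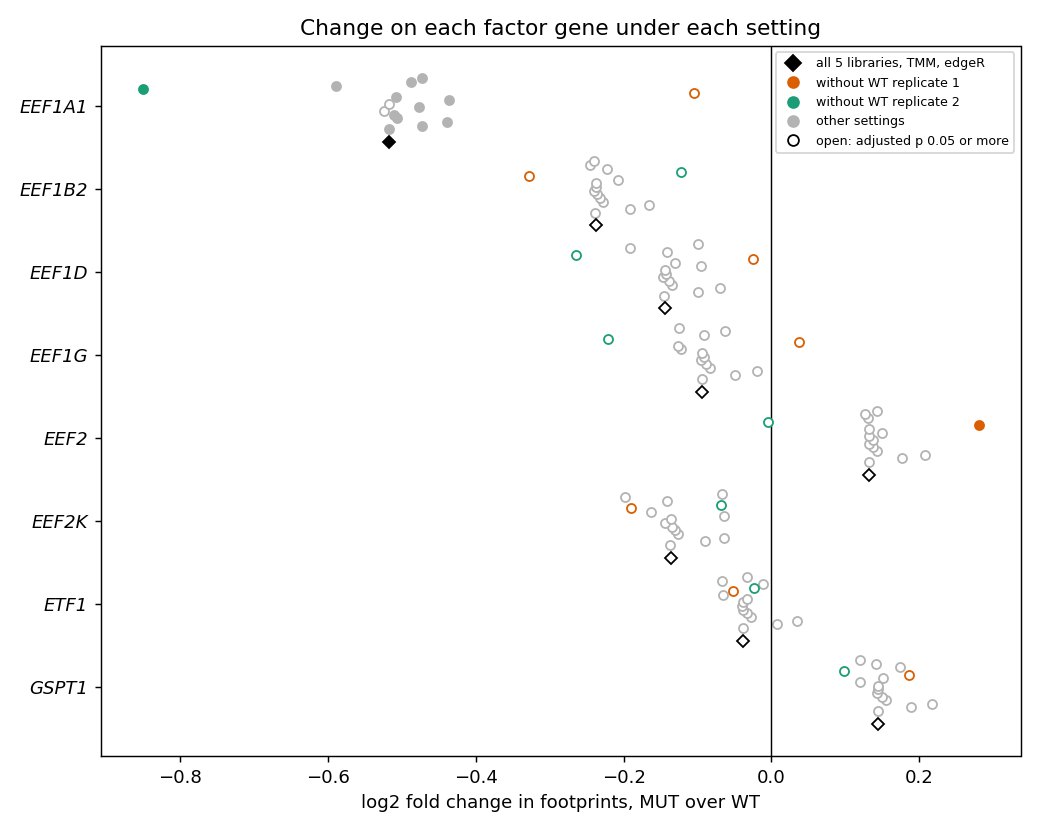
Log2 fold change of MUT over WT in footprints (horizontal axis) for each factor gene with all 5 libraries (black diamonds) and in 15 other settings (circles, spread vertically for sight), open where the adjusted p was not under 0.05. EEF1A1 lies between -0.85 without WT replicate 2 and -0.10 without WT replicate 1, and EEF2 is filled at 0.28 without WT replicate 1 alone.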

How the data were processed

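The authors deposited raw footprint counts, whole numbers per gene for 17297 genes and 5 libraries, not normalized by them. The submitters' processing notes name the build hg38 with FastQC 0.12.1, DESeq2 1.42.0, cutadapt 4.6 and STAR 2.5.2b. The sources used here do not give the counting tool, the annotation, the use of strand or what was done with reads that match several places. Per the labels' protocols, extract was digested with MNase and fragments of 25 to 35 nucleotides from the 80S monosome fraction were sequenced. MNase has base preferences, so counts depend on base composition.

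Counts were tested in R 4.3.3 with edgeR 4.0.16 (filterByExpr with a minimum count of 10 and a minimum total of 15, TMM factors from 0.959 to 1.03, the quasi-likelihood F test, Benjamini-Hochberg adjustment over 11991 genes, threshold 0.05). The common coefficient of variation was 7.37%, with 3 residual degrees of freedom and a median of 25.2 in total once dispersion was shared across genes. Fold changes are MUT over WT. Totals ran from 2095217 to 3821176 counts. No library was a copy of another, since chi-square per gene between pairs was 1.90 to 8.01. Ratios and shares were tested by exact two-sided permutation over 10 splits. Alternatives were scaling by library size only, by RLE or by the upper quartile, no filter and a strict one (30 counts in 2 libraries), DESeq2 1.42.0, limma-voom (limma 3.58.1), robust dispersion, the replicate number as a block, thinning to the smallest library, and leaving out each library. The factor genes and the lists were chosen with earlier results of these data known.

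Named genes are the 8 factors, the 4 genes (or fewer) of lowest p in every pathway list, and the 5 genes nearest to EEF1A1, EEF2 and EEF2K. One gene under this rule is not reported here. Of the gene names, 17077 matched a RefSeq symbol, all 8 factors among them. Levels per coding length were planned but could not be computed without coding lengths, so counts of different genes are set against each other only as ratios within a library, compared between the groups.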

Additional observations from a re-analysis of the deposited data

How the results depend on the processing

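WT replicate 1 was the smallest library. With 1 library left out, EEF1A1, EEF1B2, EEF1D, EEF1G, EEF2 and GSPT1 had their lowest and highest log2 fold changes without WT replicate 1 or 2. For EEF2K and ETF1 these came from leaving out MUT libraries. Where 1 WT library was left out, the other was assumed to vary like the MUT libraries. Leaving out each library gave 0 to 1 of the 8 factor genes called higher and 0 to 1 lower, 1 to 5 and 1 to 7 of the 48 other genes, and 509 to 1089 and 732 to 1339 of all genes. EEF1A1 was not called, and 0 factor genes were lower, by DESeq2, with robust dispersion and without WT replicate 1. DESeq2 called 610 genes higher and 953 lower, 3 of the 48 other genes lower, and 5 of them were lower with library size only or upper-quartile scaling. Of all calls 43.8% were higher with TMM, 62.8% with library size only and 56.3% with the upper quartile. Signs turned for ETF1 (0.0070 with the upper quartile, 0.035 with library size only) and DHPS (0.030 and 0.058 with those scalings, 0.042 with the replicate block). With 1 library left out, EEF1G ran from -0.22 to 0.037, EEF2 from -0.0040 to 0.28 and DHPS from -0.16 to 0.12. The causes were not tested.

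With 1 library left out, the share of the 8 genes differed by -0.0243 to 0.0442 percentage points. The log2 ratios ran from -0.36 to 0.099 (EEF1B2 to EEF1G), -0.13 to 0.022 (EEF1D to EEF1G), -0.30 to 0.14 (EEF1B2 to EEF1D), -0.85 to -0.39 (EEF1A1 to EEF2), -0.24 to -0.12 (ETF1 to GSPT1), -0.47 to -0.067 (EEF2K to EEF2) and 0.26 to 0.30 (8 genes to ribosomal protein genes). That last ratio was 0.20 from means of log2 CPM. Over ribosomal protein genes, EEF1A1 ran from -0.40 to 0.057, EEF1B2 from -0.17 to 0.33 and EEF2K from -0.029 to 0.38, and the joint share of EEF1A1 and EEF1A2 from -0.0215 to 0.00779 percentage points.

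The replicate numbers are not said to mark a shared culture. Same-numbered deviations from the group means correlated at 0.0784 and 0.151 over 2 pairs, and crossed pairs at -0.151 and -0.0784. With 2 WT libraries the WT deviations mirror each other, so the crossed values repeat the others with the sign turned. These correlations cannot decide whether the numbers mark pairs. With the replicate block, EEF1A1 was at -0.44 and EEF2 at 0.15, no factor gene's call changed, and 6 of the 48 other genes were higher and 10 lower, with 1529 and 1909 of all genes. Levels per coding length were not run.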
